A study of Mus musculus with 4 samples.

Results

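The genes described here are the Wnt ligands, the Frizzled receptors and the secreted and membrane proteins that modulate them, measured by RNA sequencing in E15.5 mouse embryo stomachs (E, embryonic day). Members were chosen by gene symbol alone, which gave 53 of the 51098 genes in the deposited table: 19 Wnt ligands, 10 Frizzled receptors, and the Lrp, Lgr, R-spondin, Sfrp and Dkk genes with Wif1, Notum, Rnf43, Znrf3, Axin2, Lef1 and Tcf7. The study set Fgf9_null stomachs (genotype Fgf9LacZ/LacZ, treatment label Fgf9KO) against Fgf9_het stomachs (genotype Fgf9LacZ/+, treatment label control), with 2 samples in each group, numbered 2 and 3 in both. The product of Fgf9 is a fibroblast growth factor, a secreted signal. The controls carry the LacZ allele as well, beside a normal copy, and no stomach without it was compared.

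Wnt proteins are secreted, lipid-modified ligands that bind a Frizzled receptor. In the canonical branch, Frizzled pairs with the coreceptors Lrp5 or Lrp6, beta-catenin is spared from breakdown, and TCF/LEF factors switch on targets such as Axin2; in other branches, Wnts such as Wnt5a steer cell polarity and movement without beta-catenin. Sfrp and Wif1 proteins bind the ligands, Dkk1 blocks the Lrp coreceptors, Notum removes the lipid, and Rnf43 and Znrf3 clear Frizzled from the cell surface unless R-spondins acting with Lgr receptors hold them back. In the mouse, the mesenchymal factor Barx1 is known to keep Wnt activity low in the developing stomach through Sfrp1 and Sfrp2.

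For the members, same-numbered samples of both genotype labels held nearly the same reads. Column totals were 19537211 and 22713416 reads for Fgf9_null samples 2 and 3, and 19269851 and 22425865 reads for Fgf9_het samples 2 and 3. Of the 53 members, 41 had equal reads (within 0.001) in both columns numbered 2, and 39 in both columns numbered 3. The largest difference for any member was 2.001 reads in the columns numbered 2 and 5.03 reads in those numbered 3. Over members with a summed count of at least 10, chi-square divided by its degrees of freedom was 0.0889 and 0.0868 between same-numbered columns and 3.10 to 3.51 between columns of different number. The members of same-numbered columns therefore agreed more closely than sampling noise allows for separate libraries. Over all genes the same statistic was 4.46 and 4.64 between same-numbered columns, near the 5.504 to 5.52 between columns of 1 label. A single gene carried most of it: the structured RNA gene Rn7s1 had 529306 and 588969 reads in the Fgf9_null samples, against 255292 and 291630 in the Fgf9_het samples. Without Rn7s1 the statistic was 0.0942 and 0.112 between same-numbered columns, and 5.496 to 5.502 between columns of 1 label. Of genes with at least 20 reads summed, 12 of 19301 differed by over 10% between the columns numbered 2, and 8 of 19546 between those numbered 3, Rn7s1 among them. Same-numbered columns were therefore averaged and counted as 1 sample, called library 2 and library 3 below. The table holds 2 more value columns that have no name, and whether the names stand over the columns they describe was not settled. So each genotype label here is that of the column name, and the genotype of either library is not known.

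Fgf9, the targeted gene, had 133 and 131 reads in the Fgf9_null samples, against 133 and 131 in the Fgf9_het samples. On the CPM scale, which divides reads by the column total and multiplies by 1000000, that is 6.81 and 5.77 in Fgf9_null samples and 6.90 and 5.84 in Fgf9_het samples. Same-numbered columns held nearly the same reads for nearly all genes, so equal Fgf9 reads under both labels do not compare the genotypes. Reads may also come from parts of the gene that the LacZ allele keeps, so their presence does not check the genotype.

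No member was called between the labels. Wnt5a had 1409 and 1556 reads in the Fgf9_null samples, against 1410 and 1556 in the Fgf9_het samples. Sfrp1 had 3793 and 4836 reads in the Fgf9_null samples, against 3794 and 4838 in the Fgf9_het samples. Of the 53 members, 42 passed the low-count filter, and edgeR's quasi-likelihood test called 0 of them at an adjusted p under 0.05, where it called 0.0% of 19987 genes. At an unadjusted p under 0.05 it had 0 members and 4 genes, and DESeq2 called 0 members and 3 of 29597 genes (0.0101%). The log2 folds of Fgf9_null over Fgf9_het lay between -0.0041 and 0.00033 for the 42 members, each at an edgeR adjusted p of 1. A fit with replicate number as a block called 3 members with edgeR, each lower under the Fgf9_null label. That fit called 5.89% of all genes, and 4.89% as lower under the Fgf9_null label. The 3 members were Lgr5, Tcf7 and Wnt5b, and Lgr5 had 321 and 322 reads in the Fgf9_null samples, against 321 and 324 in the Fgf9_het samples. A block pairs columns that hold nearly the same reads for nearly all genes. No call among the members between the labels can therefore be read as an effect of Fgf9.

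The libraries still describe the Wnt system of the embryonic stomach. Of the 53 members, 34 had 1 CPM or more in each library (64.2%), against 65.8% of the 21779 protein-coding genes. Another 12 members lay under 1 CPM in a library but above 3 reads in at least 1, and 7 had 3 reads or fewer in both. A level of 3 reads, taken as the floor, was 0.132 to 0.156 CPM. Because this is bulk RNA, fewer cells of a type and less RNA per cell cannot be told apart.

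Short promoter sequences show which members carry a TCF/LEF core word near their start. RefSeq windows of build GRCm38.p6, from 250 bases before a gene's start to 50 after it, were found for 34 of the 53 members (42 windows). They were searched on both strands for CTTTGAA or CTTTGAT and for CTTTGTA or CTTTGTT, and no matches in member windows overlap. Of the member windows, 14.3% held such a word, against 16.9% of all 32851 windows, so the members' share was near the background. The matches that lie before the RefSeq start are printed 5′ to 3′ on the gene's strand, with the word, or its reverse complement, in capitals:
Fzd7, chr1:59482008-59482032, plus strand: cacagagaaAACAAAGcgcgctatt
Lef1, chr3:131156138-131156162, plus strand: acctcagaaTACAAAGtaggattgc
Wnt5b, chr6:119449442-119449466, minus strand: taagtctctCTTTGATctgctccct
Wnt11, chr7:98835052-98835076, plus strand: cgtgggcggATCAAAGcgacggtcc
Dkk1, chr19:30549598-30549622, minus strand: ctcccaaagCTTTGAAatcccatcc
Dkk1, chr19:30549579-30549603, minus strand: ccatcccggCTTTGTTgtcttccct
The Fzd7 word began 130 bases before the start and the Wnt11 word 51 bases before it. The Lef1, Wnt5b and Wnt11 matches belong to windows at 1 of several RefSeq starts of those genes. Dkk1 was the member with matches at 2 places in 1 window. GENCODE M21 starts Dkk1 further upstream than RefSeq does, so its matches, like those of Lef1 and Wnt5b, lie inside the gene in that annotation. A further match, in Wnt3, lay after the start.

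The 250 bases before the starts of Axin2, the common readout of canonical signalling, and of Lgr6, the member that differed most between the libraries among the 34, held none of the words. That says only that these letters are not in this window:
Axin2, chr11:108920099-108920348, plus strand: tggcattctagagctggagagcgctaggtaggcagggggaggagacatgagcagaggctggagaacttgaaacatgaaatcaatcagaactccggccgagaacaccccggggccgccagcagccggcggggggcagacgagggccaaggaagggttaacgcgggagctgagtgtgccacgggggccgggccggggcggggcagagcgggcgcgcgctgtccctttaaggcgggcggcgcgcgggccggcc
Lgr6, chr1:135105277-135105526, minus strand: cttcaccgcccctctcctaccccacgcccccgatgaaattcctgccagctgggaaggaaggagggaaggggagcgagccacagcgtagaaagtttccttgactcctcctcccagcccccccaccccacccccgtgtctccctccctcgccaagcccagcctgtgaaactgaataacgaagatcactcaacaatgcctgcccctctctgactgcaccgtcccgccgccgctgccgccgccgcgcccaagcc
Guanine and cytosine made up 69.2% of the Axin2 stretch and 65.2% of the Lgr6 stretch, close to the median of 66.4% over member windows and above the median of 52.4% over all windows.

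The ligand genes were led by Wnt5a. Wnt5a (ENSMUSG00000021994, a protein-coding gene on the plus strand of GRCm38 chromosome 14, 28504750 to 28527448) had 72.7 CPM in library 2 and 68.9 in library 3. Wnt4, a ligand known for roles in kidney and gonad development, had 36.5 CPM in library 2 and 31.2 in library 3. Wnt2b, a ligand of gut and lung mesenchyme, had 15.3 and 16.5 CPM. Wnt9a had 11.6 and 12.3 CPM, so these ligands were the 4 above 10 CPM in both libraries. Wnt5b, a close relative of Wnt5a, had 8.86 and 7.38 CPM. Wnt11, a ligand known for convergent extension movements, had 6.18 and 5.54 CPM. Wnt16 had 3.71 and 5.01 CPM and was the ligand at 1 CPM or more in both libraries that stood furthest toward library 3.

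The other 12 ligand genes were low. Wnt10a had 35 reads in library 2 and 22 in library 3, Wnt6 had 29 and 20, Wnt7b 24 and 19, and Wnt2 17 and 11. Wnt3, Wnt8b and Wnt10b had between 2 and 6 reads. The canonical ligand Wnt3a had 1 read in library 2 and 3 in library 3, Wnt9b had 1 in each, and Wnt8a had 0 and 1. Wnt1 and Wnt7a had no reads in either library, where the floor of 3 reads is 0.156 CPM in the shallowest column. The exact 95% Poisson interval of 0 reads ends at 0.190 CPM in library 2 and 0.163 in library 3, for counting error only.

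To compare genes, CPM was divided by the length of the merged exons in GENCODE M21, giving CPM per kb. On this scale Wnt5a averaged 9.05 ± 0.337 and Wnt4 8.06 ± 0.894 CPM per kb (SD, n = 2 libraries), above 75.2% and 72.2% of the protein-coding genes with reads. Wnt2b and Wnt9a followed at 3.78 ± 0.214 and 3.60 ± 0.158 CPM per kb, and their library ranges overlapped. Wnt5b averaged 3.06 ± 0.396, Wnt11 1.42 ± 0.110 and Wnt16 1.00 ± 0.210 CPM per kb. Wnt5a made up 28.1% of the summed ligand level per length in library 2 and 28.8% in library 3, and Wnt4 made up 26.3% and 24.3%. Wnt9a held 10.5% in library 2 and 12.1% in library 3, and Wnt5b 10.1% and 9.09%.

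**Figure D1:**
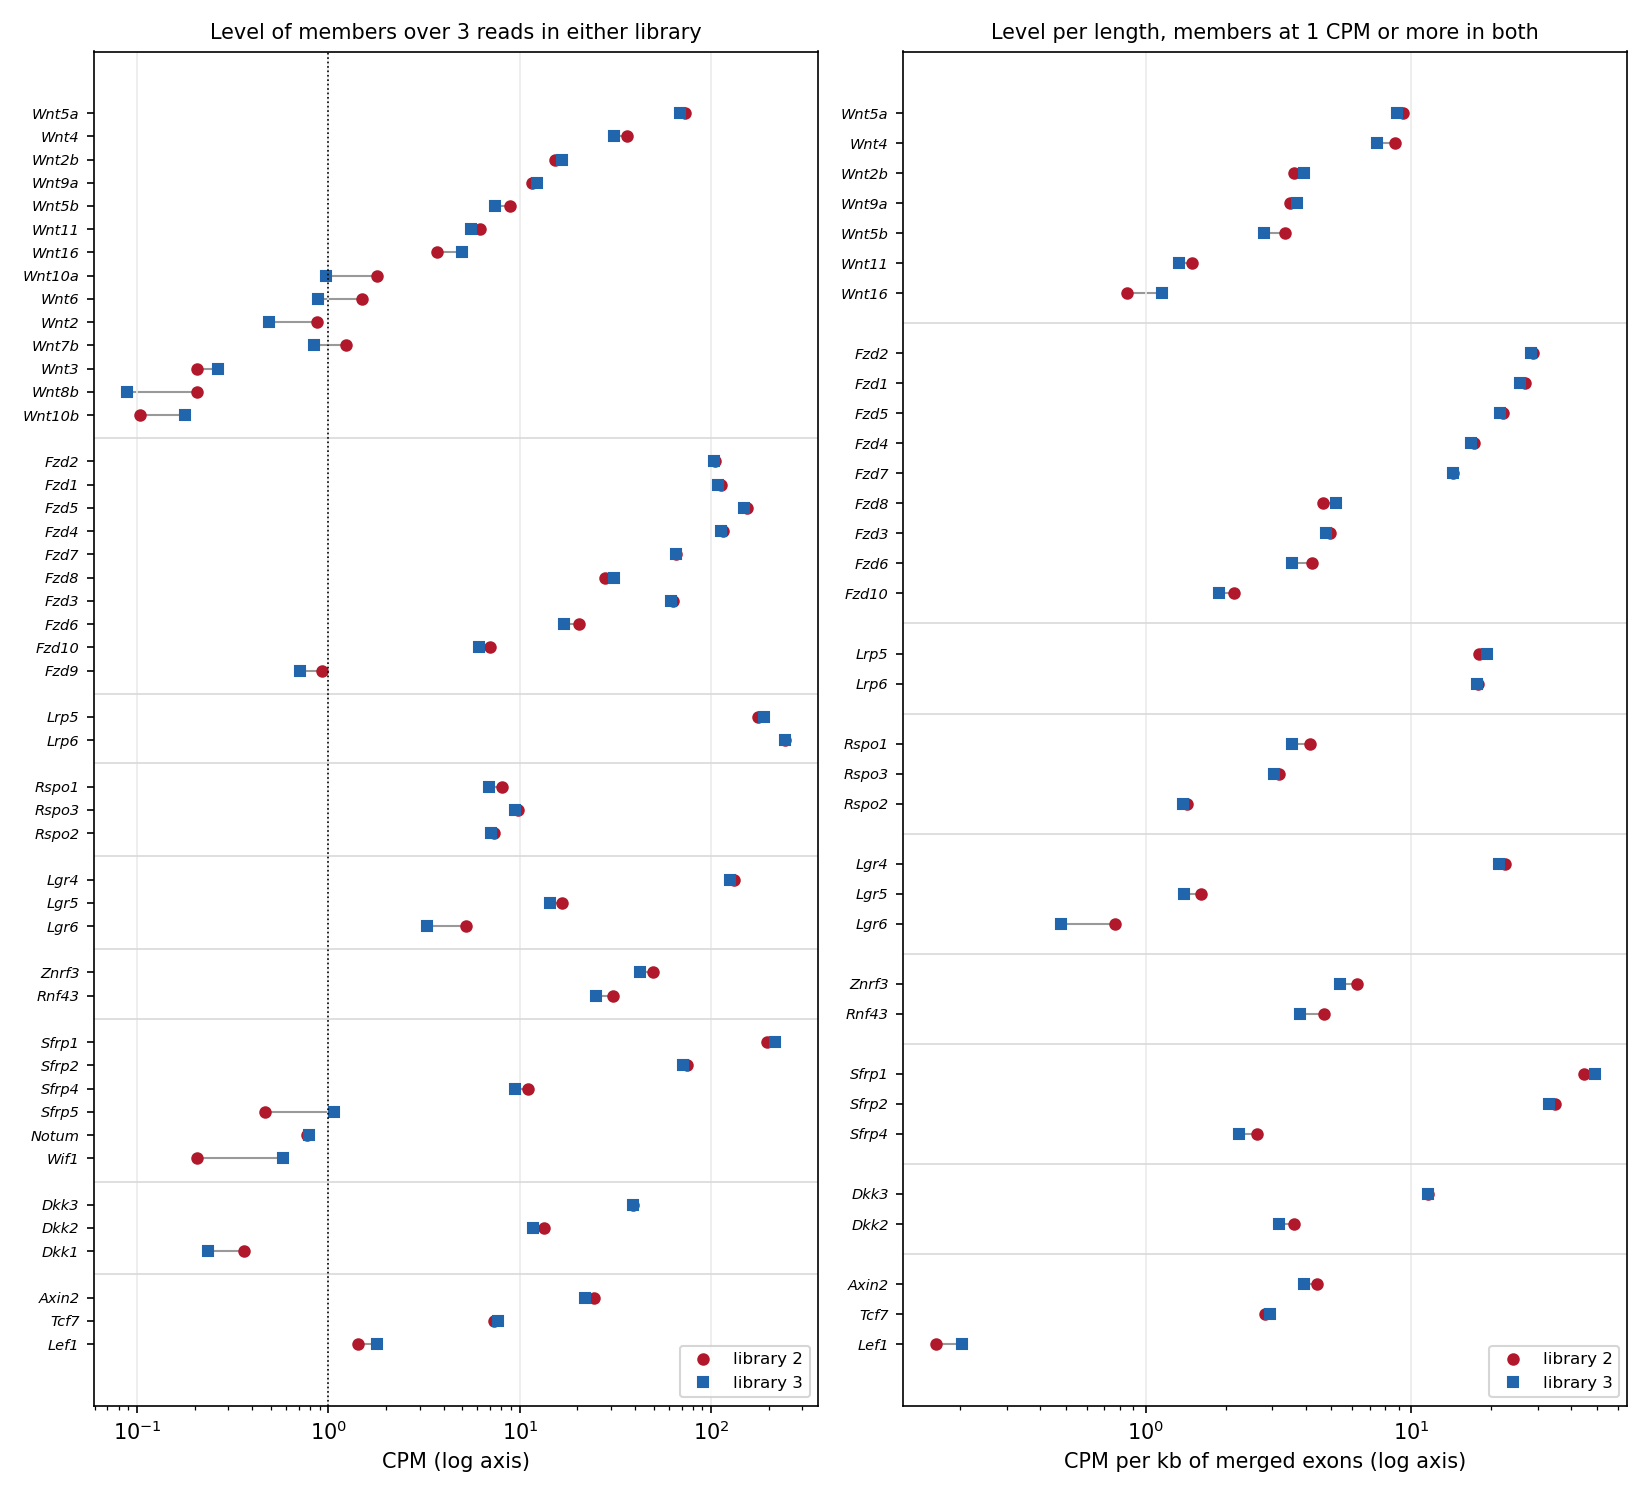
Level of each member in library 2 (circles) and library 3 (squares), grouped by role. The left panel gives CPM on a log axis for the 46 members above 3 reads in either library, with a dotted line at 1 CPM; the right panel gives CPM per kb of merged exons on a log axis for the 34 members at 1 CPM or more in both. Wnt5a and Wnt4 lead the ligands in both panels. Per length of merged exons, Fzd2, Fzd1 and Fzd5 lead the Frizzled genes, and Sfrp1 and Sfrp2 lie highest of all members. In CPM, Lrp6 lies highest.

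Frizzled receptor genes were more abundant than ligand genes, and no single receptor dominated. Fzd5, a receptor known from gut epithelium, had 153 CPM in library 2 and 149 in library 3. Fzd4 had 116 and 112 CPM, Fzd1 113 and 108 CPM, and Fzd2 105 and 104 CPM, so 4 Frizzled genes lay above 100 CPM in both libraries. Fzd7, known as a receptor of intestinal stem cells, had 65.4 and 65.1 CPM. Fzd3, known for axon guidance, had 63.5 CPM in library 2 and 61.4 in library 3. Fzd8 had 27.9 and 31.1 CPM, and Fzd6, known for its part in planar cell polarity of skin and hair, had 20.5 and 17.1 CPM. Fzd10 reached 7.01 and 6.11 CPM, and Fzd9 was under 1 CPM in both libraries, at 18 and 16 reads. Fzd8 was the 1 Frizzled gene of the 9 at 1 CPM or more that was lower in library 2.

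Per length, the order of the Frizzled genes changed. Fzd2 led at 28.5 ± 0.247 CPM per kb, followed by Fzd1 at 26.3 ± 0.748 and Fzd5 at 21.8 ± 0.432 (SD, n = 2 libraries). These levels lay above 94.6%, 93.9% and 92.1% of the protein-coding genes with reads. Fzd4 averaged 17.0 ± 0.371 and Fzd7 14.4 ± 0.0373 CPM per kb. Fzd8 at 4.93 ± 0.376 and Fzd3 at 4.88 ± 0.118 CPM per kb had overlapping library ranges. Fzd6 stood at 3.90 ± 0.493 and Fzd10 at 2.02 ± 0.195 CPM per kb. The 10 Frizzled genes summed to 126 CPM per kb in library 2 and 122 CPM per kb in library 3, against 33.0 and 30.6 CPM per kb for the 19 ligand genes. Fzd2 held 22.8% and 23.2% of the Frizzled sum, and Fzd1 held 21.3% and 21.0%. The composition of the receptor pool was thus nearly the same in both libraries.

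**Figure D2:**
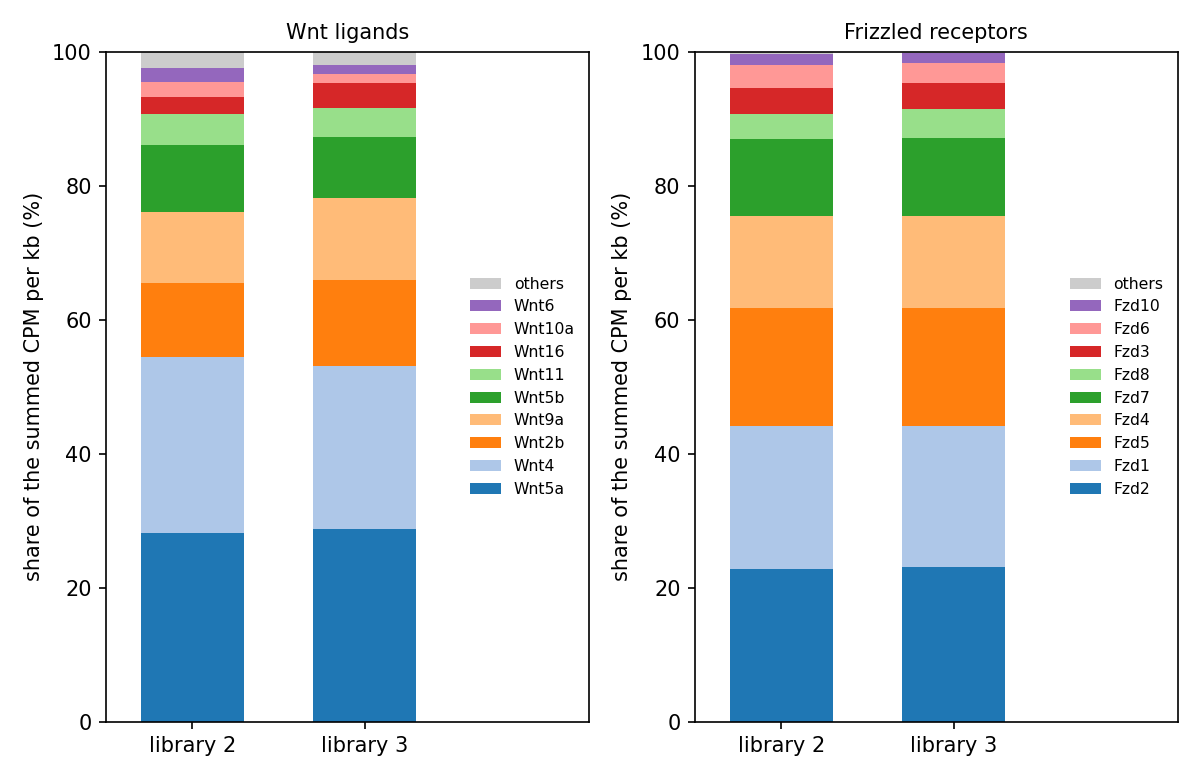
Share of each gene in the summed CPM per kb of the 19 Wnt ligand genes (left) and the 10 Frizzled genes (right), in library 2 and library 3, in percent. Genes with a mean share under 1% are drawn together as others; Wnt5a holds 28.1% and 28.8% of the ligand sum, and Fzd2 22.8% and 23.2% of the Frizzled sum.

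Both Lrp coreceptor genes were well expressed and nearly equal per length of merged exons. Lrp6 had 244 CPM in library 2 and 242 in library 3, the highest CPM among the members. Lrp5 had 175 and 188 CPM and was lower in library 2. Per length, Lrp5 averaged 18.6 ± 0.971 and Lrp6 17.8 ± 0.105 CPM per kb (SD, n = 2 libraries). Their library ranges did not overlap, but the order turned when the longest or the median transcript was taken as the length. Merged exons span 13672 bases for Lrp6 and 9738 for Lrp5, against 9368 and 8893 bases for the longest transcripts. The near equality thus depends on the length taken.

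Of the genes that protect or clear the receptors, Lgr4 was far above Lgr5 and Lgr6. Lgr4, a broadly expressed R-spondin receptor, had 132 CPM in library 2 and 126 in library 3. Lgr5, known as a marker of gastric and intestinal stem cells, had 16.6 CPM in library 2 and 14.3 in library 3. Lgr6 had 5.23 and 3.29 CPM. Per length Lgr4 averaged 21.9 ± 0.745, Lgr5 1.505 ± 0.154 and Lgr6 0.622 ± 0.201 CPM per kb (SD, n = 2 libraries), so Lgr4 held 90.4% of the Lgr sum in library 2 and 91.9% in library 3.

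The R-spondin ligands were low in CPM, and the 3 at 1 CPM or more were close to each other on that scale. Rspo3 had 9.81 CPM in library 2 and 9.42 in library 3, Rspo1 had 8.04 and 6.91 CPM, and Rspo2 had 7.32 and 7.05 CPM. Rspo4 had 2 reads in each library. Per length, Rspo1 led at 3.86 ± 0.411 CPM per kb, ahead of Rspo3 at 3.11 ± 0.0876 and Rspo2 at 1.40 ± 0.0378 (SD, n = 2 libraries). These levels lay above 52.4%, 47.4% and 34.7% of the protein-coding genes with reads. The membrane ubiquitin ligase genes, which are also canonical targets, were both higher in library 2: Znrf3 had 49.4 CPM in library 2 and 42.7 in library 3, and Rnf43 had 30.7 and 24.9 CPM.

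Secreted inhibitors included the members with the highest level per length of merged exons, a ranking across roles that depends on the length taken. Sfrp1 (ENSMUSG00000031548, a protein-coding gene on the plus strand of GRCm38 chromosome 8, 23411502 to 23449632) had 196 CPM in library 2 and 214 in library 3. Sfrp2 had 75.1 and 71.4 CPM. Per length, Sfrp1 averaged 46.9 ± 3.04 and Sfrp2 34.01 ± 1.205 CPM per kb (SD, n = 2 libraries), above 97.1% and 95.7% of the protein-coding genes with reads. Each of these genes was thus above the sum of the 19 ligand genes per length of merged exons. For Sfrp1 this does not hold with the median transcript as the length. The median transcript of Wnt5a is 1254 bases against 7823 bases of merged exons, while Sfrp1 has 4372 bases by both. Sfrp4 had 10.98 CPM in library 2 and 9.39 in library 3. Sfrp5 had 9 reads in library 2 and 24 in library 3, Wif1 4 and 13, and Notum 15 and 18.

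The Dickkopf genes split into a pair that was expressed and a pair that was nearly silent. Dkk3, a divergent member that is not known as an Lrp blocker, had 38.8 CPM in library 2 and 38.9 in library 3. Dkk2 had 13.5 and 11.7 CPM. Dkk1, the classical Lrp antagonist, had 7 reads in library 2 and 5 in library 3, and Dkk4 had 0 and 3.

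The target Axin2 and the nuclear factors Tcf7 and Lef1 were at moderate to low levels. Axin2 had 24.3 CPM in library 2 and 21.8 in library 3. Tcf7 had 7.37 and 7.73 CPM, and Lef1 had 1.43 and 1.78 CPM. Per length, Axin2 averaged 4.18 ± 0.318, Tcf7 2.88 ± 0.0975 and Lef1 0.183 ± 0.0286 CPM per kb (SD, n = 2 libraries). Outside the members, the TCF/LEF genes Tcf7l1 and Tcf7l2 were higher, at 20.1 ± 0.724 and 10.4 ± 0.0485 CPM per kb.

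Most members differed little between the libraries, and the 1 that passed 1.5-fold was Lgr6. Each library is 1 sample, so these ratios have no replicate check and no test. The intervals are exact conditional binomial 95% intervals for counting error. Lgr6 (ENSMUSG00000042793, a protein-coding gene on the minus strand of GRCm38 chromosome 1, 134983301 to 135105276) was 1.59 times as high in library 2 as in library 3 (interval 1.18 to 2.19). Of 16712 genes that reached 1 CPM in each library, 3.88% passed 1.5-fold in either direction 2.52% did with library 2 higher and 1.36% with library 3 higher, so 1 of 34 members is near the background.

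Direction leaned toward library 2. Of the 34 members, 25 were higher in library 2 (73.5%), against 54.2% of all genes at that level. The median ratio was 1.04 for members and 1.01 for all genes. Both ubiquitin ligase genes were on that side, with a ratio of 1.23 for Rnf43 (interval 1.10 to 1.38) and 1.16 for Znrf3 (1.06 to 1.27). Wnt4 had a ratio of 1.17 (1.05 to 1.30) and Fzd6 1.20 (1.04 to 1.38). On the other side, Sfrp1 had a ratio of 0.912 (0.874 to 0.952), Lrp5 0.929 (0.888 to 0.972) and Wnt16 0.741 (0.544 to 1.00). Axin2, at 1.11, had an interval of 0.979 to 1.27. All of these except Lgr6 and Wnt16 lie within the range from 0.797 to 1.36 that held all genes between the 5th and 95th percentile.

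**Figure D3:**
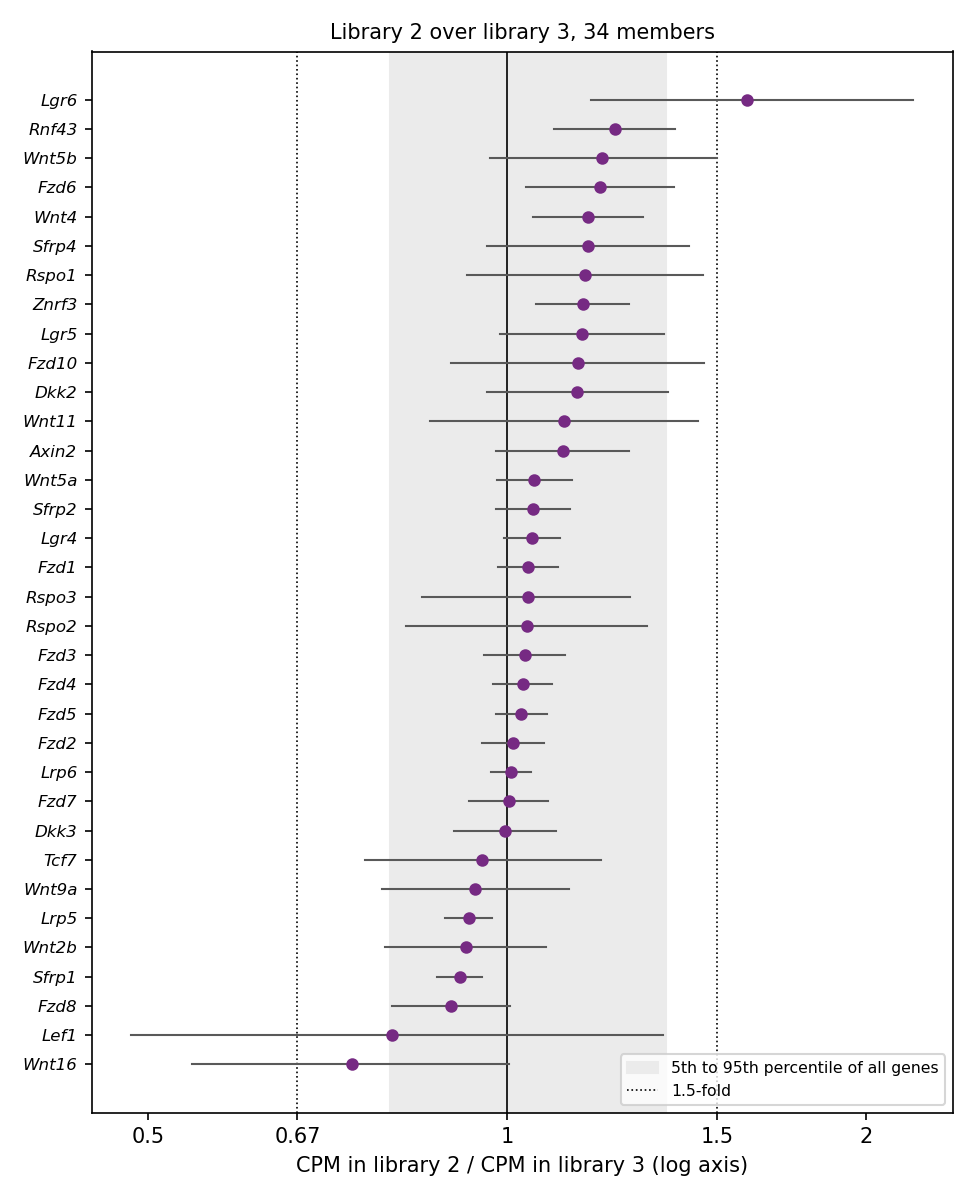
Ratio of CPM in library 2 to CPM in library 3 on a log axis for the 34 members at 1 CPM or more in both libraries, sorted by ratio. Points are ratios, lines are 95% counting intervals, the grey band spans the 5th to 95th percentile of 16712 genes, and dotted lines mark 1.5-fold; Lgr6, at 1.59, is the 1 member beyond a dotted line.

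Squamous forestomach markers were higher in library 2. The 8 squamous markers (Krt5, Krt14, Krt15, Krt13, Krt4, Trp63, Krt6a, Sprr3) summed to 657 CPM in library 2 and 355 in library 3. Of the 7 at 1 CPM or more in both libraries, 7 were higher in library 2 and 6 passed 1.5-fold. Trp63, the basal squamous transcription factor, had 21.9 CPM in library 2 and 12.8 in library 3, and Krt4 had 132 and 65.2 CPM. The part of squamous epithelium in the members' ratios was not tested.

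The 12 low members above 3 reads lay on both sides. Past 1.5-fold were 5 toward library 2 (Wnt10a, Wnt6, Wnt2, Wnt8b and Dkk1) and 3 toward library 3 (Sfrp5, Wif1 and Wnt10b). Of all genes with more than 3 reads in either library, 19.7% passed 1.5-fold, well expressed genes included. No share was taken over all genes as low as these, so the counts are not read as a trait of the members. Wnt10a, with 1.804 CPM in library 2 and 0.975 in library 3, had a ratio of 1.85 (interval 1.06 to 3.31), and Sfrp5, with 0.464 and 1.06 CPM, had a ratio of 0.436 (0.178 to 0.972). These were the 2 low members whose interval did not hold 1. Wnt6 had a ratio of 1.69 (0.922 to 3.15) and Wif1 0.358 (0.0850 to 1.16).

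Glandular, mesenchymal and muscle markers moved less. The 6 glandular epithelial markers summed to 1627 CPM in library 2 and 1647 in library 3, the 6 gastric mesenchyme markers to 9661 and 9339 CPM, and the 5 smooth muscle markers to 5370 and 5581 CPM, with 0 of them past 1.5-fold. Defining markers of the labelled tissue were present: Barx1 had 129 CPM in library 2 and 136 in library 3, and Gata4 117 and 112 CPM. Markers of other cells were lower in library 2 for the liver, at 34.5 CPM against 56.4 CPM in library 3, and for erythroid cells, at 798 against 997 CPM. The 3 endothelial markers were also all lower in library 2, with a sum of 232 against 270 CPM in library 3, and none passed 1.5-fold. The 3 skeletal muscle markers summed to 5.26 CPM in library 2 and 2.44 in library 3, nearly all of it from Acta1 at 5.15 and 2.35 CPM. Of the lung markers, Sftpc had no reads and Nkx2-1 was at 0.136 CPM in library 2 and 0.0484 in library 3, under the floor of 3 reads. The part of RNA from these cells in the members' ratios was not tested.

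**Figure D4:**
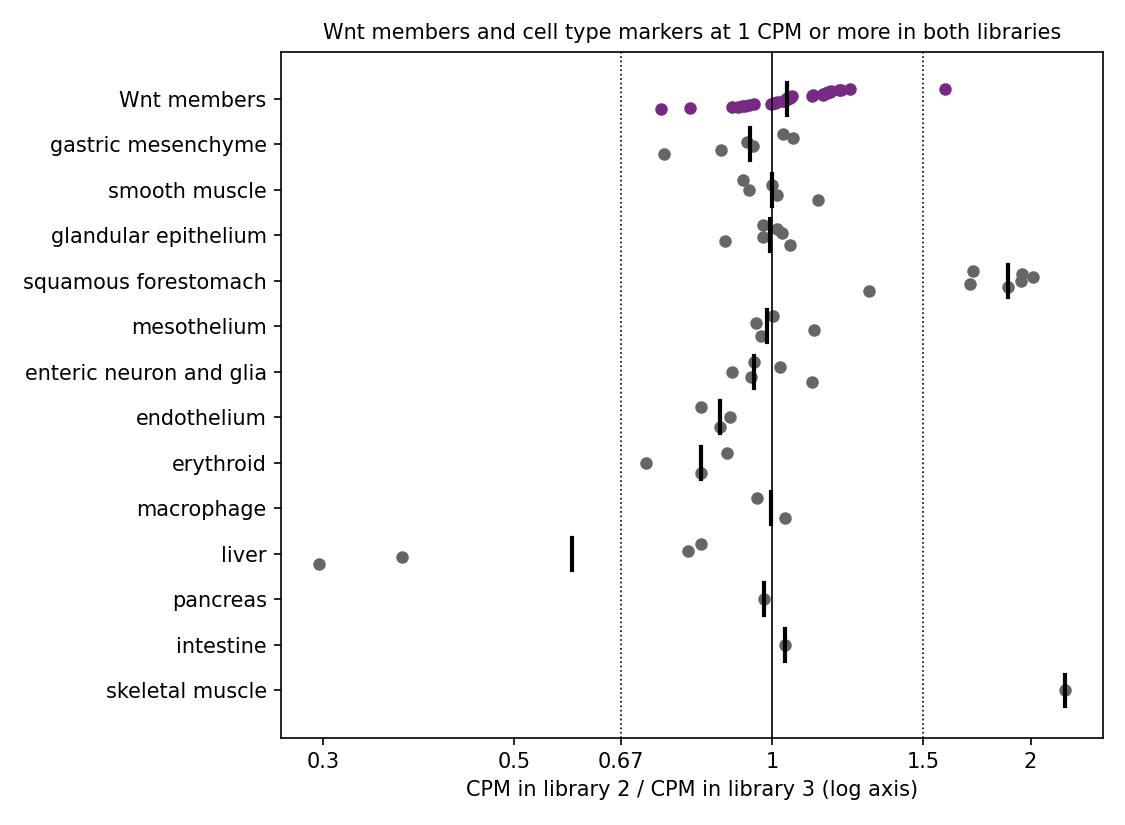
Ratio of CPM in library 2 to CPM in library 3 on a log axis for the 34 members and for cell type markers with at least 1 CPM in each library. Each point is a gene, black bars are medians and dotted lines mark 1.5-fold; squamous forestomach markers lie to the right of 1, liver and erythroid markers to the left, and the members' median is 1.04.

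A chosen list of 47 further pathway genes was expressed broadly, with a median ratio near 1. Of 47 further pathway genes, 42 reached 1 CPM in both libraries (89.4%), and 0 of these 42 passed 1.5-fold, against 3.88% of all genes. At 1 CPM or more, 17 of 42 were higher in library 2 (40.5%), below the 54.2% of all genes, with a median ratio of 0.991. Their direction was not tested. Per length, the list was led by Ctnnb1 (beta-catenin) at 136 ± 6.98 CPM per kb, with 680.5 CPM in library 2 and 732 in library 3. Gpc3, a cell surface glypican, averaged 94.96 ± 14.2 CPM per kb, with 228.5 CPM in library 2 and 282 in library 3. Ptk7, a planar polarity receptor, averaged 46.3 ± 1.38, and Csnk1a1, a kinase of the beta-catenin destruction complex, 29.8 ± 1.01 CPM per kb (SD, n = 2 libraries). edgeR tested 44 of the 47 between the labels and called 0.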

How the data were processed

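Stomach RNA was depleted of ribosomal RNA and sequenced as paired reads, according to the labels' protocols. Tools named in the submitters' processing notes, with no role given, are Salmon 1.8.0, Trimmomatic 0.33, FastQC 0.10 and edgeR, beside the build names GRCm38 and mm10. The deposited table holds estimated counts per gene, not scaled to depth; its transcript index and strand setting were not given in the sources used here. Its 2 unnamed value columns were not used, and whether the header is shifted against the columns was not settled. No source tells if a sample is 1 embryo or a pool, so any p-value reflects just the spread of these columns, which may be technical.

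Samples were grouped by genotype label. Across genes, the deviations from the group means had a correlation of 0.998 between same-numbered columns. With 2 columns per label, this value is the same for both numbers by construction. The numbers pair columns of 1 library, so these were averaged. Levels are CPM, or CPM per kb of merged GENCODE M21 exons (50870 of 51098 genes matched). Without a known strand setting, reads of a member and an overlapping antisense gene, as for Wnt5a, Sfrp2, Fzd5, Axin2 and Lef1, cannot be told apart.

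Rounded estimated counts entered edgeR 4.0.16 under R 4.3.3 (TMM, filterByExpr, quasi-likelihood F test without the legacy option, Benjamini-Hochberg over all genes), with DESeq2 1.42.0 as an alternative. Both were tested on simulated counts of separate libraries. That test does not cover columns that hold nearly the same reads, as the same-numbered columns do here. Members, gene lists and alternatives were chosen with earlier results of these data known. Named genes were Fgf9, members at 1 CPM or more in both libraries, the leading pathway genes, and Tcf7l1 and Tcf7l2. Low members are named to account for all.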

Additional observations from a re-analysis of the deposited data

How the results depend on the processing

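The 2 independent libraries limit every comparison, and members near 3 reads are limited by depth. Between the labels, DESeq2 called 3 genes, and leaving out 1 column gave 1 to 2 genes and 0 members, where the remaining column of that label is taken to vary as the other label's columns do. With the replicate block, edgeR called 1178 genes and 3 members; the block with edgeR's legacy dispersion method, chosen after seeing the data, called 6 genes and 0 members. Other factors, no filter and the legacy method without a block called 0 genes. These contrasts compare columns that, Rn7s1 and a few other genes aside, differ by less than sampling noise, so they do not bear on Fgf9.

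Members at 1 CPM or more in both libraries numbered 33 to 39 under the other scalings, columns and minimums, and 35 to 37 with 1 library left out. Members past 1.5-fold between libraries numbered 9 with over 3 reads in either library required, 6 of them higher in library 2; 19.7% of all genes passed under that rule. They numbered 3 without 6 structured RNAs in the library size, as Wnt10a and Wnt6 then reached 1 CPM, and 0 at a minimum of 5 CPM, where 1.23% of all genes passed. Of 25 neighbouring pairs in the order per length, 24 kept their order with the longest transcript as length and 18 with the median transcript; Sfrp1 and Sfrp2, Fzd1 and Fzd5, Fzd8 and Fzd3, Fzd3 and Fzd6, Wnt5b and Wnt11, Znrf3 and Rnf43, and Lrp5 and Lrp6 turned. Without structured RNAs, levels were 1.20 to 1.21 times as high.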

Other observations

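Several Wnt genes lie beside each other in the genome, and neighbours did not always share a level. Among members, 4 neighbouring gene pairs lie within 100 kb of each other, on chromosomes 1, 11 and 15 of GRCm38. Wnt3a (chromosome 11, 59248033 to 59290752, minus strand) and Wnt9a (59306928 to 59333552, plus strand) are 16.2 kb apart; Wnt3a had 0.0515 CPM in library 2 and 0.133 in library 3, while Wnt9a had 11.6 and 12.3 CPM. Wnt6 (chromosome 1, 74771892 to 74785322) and Wnt10a (74791516 to 74804179), both on the plus strand and 6.19 kb apart, were both low and both higher in library 2, at 29 and 35 reads there against 20 and 22 reads in library 3. Wnt9b and Wnt3, 24.3 kb apart on chromosome 11, had 1 and 4 reads in library 2 and 1 and 6 reads in library 3. Wnt10b and Wnt1, 11.7 kb apart on chromosome 15, had 2 and 0 reads in library 2 and 4 and 0 reads in library 3.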
